A study of Gallus gallus with 12 samples.

Results

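Hearts of Tibetan chicken embryos, a highland breed, were compared with hearts of 2 lowland breeds, Shouguang and Dwarf Recessive White, all incubated in normoxia. The comparison is between 6 of the 12 arrays of the study: 2 Tibetan, 2 Shouguang and 2 Dwarf Recessive White arrays, chosen by their labels. The other 6 arrays held hearts of the same breeds incubated in hypoxia. They enter the fit through the estimate of the spread, which all 12 arrays share. The choice of which probe sets to test, and of which one stands for a gene, also used the mean signal over all 12 arrays. The hearts came from fertilized eggs of full siblings within each breed, and RNA was measured on Affymetrix chicken genome arrays. A difference between breeds therefore cannot be told apart from one between families, in either incubation. With 1 highland breed, altitude cannot be told apart from other traits of that breed. The labels name no transgene and no agent other than the incubation for any group. The sources used here state neither how much oxygen was given nor at which age the hearts were taken, and they do not give the embryos' sex or how many hearts were pooled. The labels do not say whether the 2 arrays of a group are technical repeats. The Dwarf Recessive White pair differed in the signal of genes on the female W chromosome, given below, by more than repeats of 1 RNA would. For the other pairs this is not known. The p-values below measure the spread between these arrays only, and the small number of arrays limits the precision.

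The Tibetan chicken lives on the high plateau, and its embryos are known to hatch better in thin air than those of lowland breeds. A chick embryo takes up oxygen through the shell, and its heart carries that oxygen from the membranes under the shell to the body. Cells sense low oxygen through the prolyl hydroxylases, which mark the hypoxia-inducible factor (HIF) for breakdown while oxygen is present. The question of the comparison is which transcripts already set the Tibetan heart apart when oxygen is not limiting.

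Levels are given as log2 signal, the log2 of the deposited signal of a probe set, which is a group of short probes that reads 1 stretch of a transcript. Differences are the Tibetan mean minus the mean of the 2 lowland breeds, each weighted equally, on the same log2 scale, with the standard error (SE) of the fit (n = 2 Tibetan and 4 lowland arrays). In limma's fit over 23063 probe sets, 11 passed an adjusted p of 0.05, which is 0.0477% of those tested (7 or 0.0304% higher and 4 or 0.0173% lower in Tibetan hearts). At an unadjusted p under 0.05 there were 1689. For 10 of the 11 (0.0434% of all) both Tibetan arrays lay outside the range of all 4 lowland arrays, 6 above it and 4 below. Among all tested probe sets 14.6% lay outside in this way. The test and this position use the same values, so the position adds no separate support to a call. Of the 11 probe sets 9 carried 1 gene symbol: TRIM47, HMOX2, TCF25, LOC770705 and KBTBD8 were higher, and NUF2, PLB1, SLC4A1AP and SRD5A3 were lower. The plot of the 9 genes by array shows every value, those of the hypoxia arrays included.

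**Figure D1:**
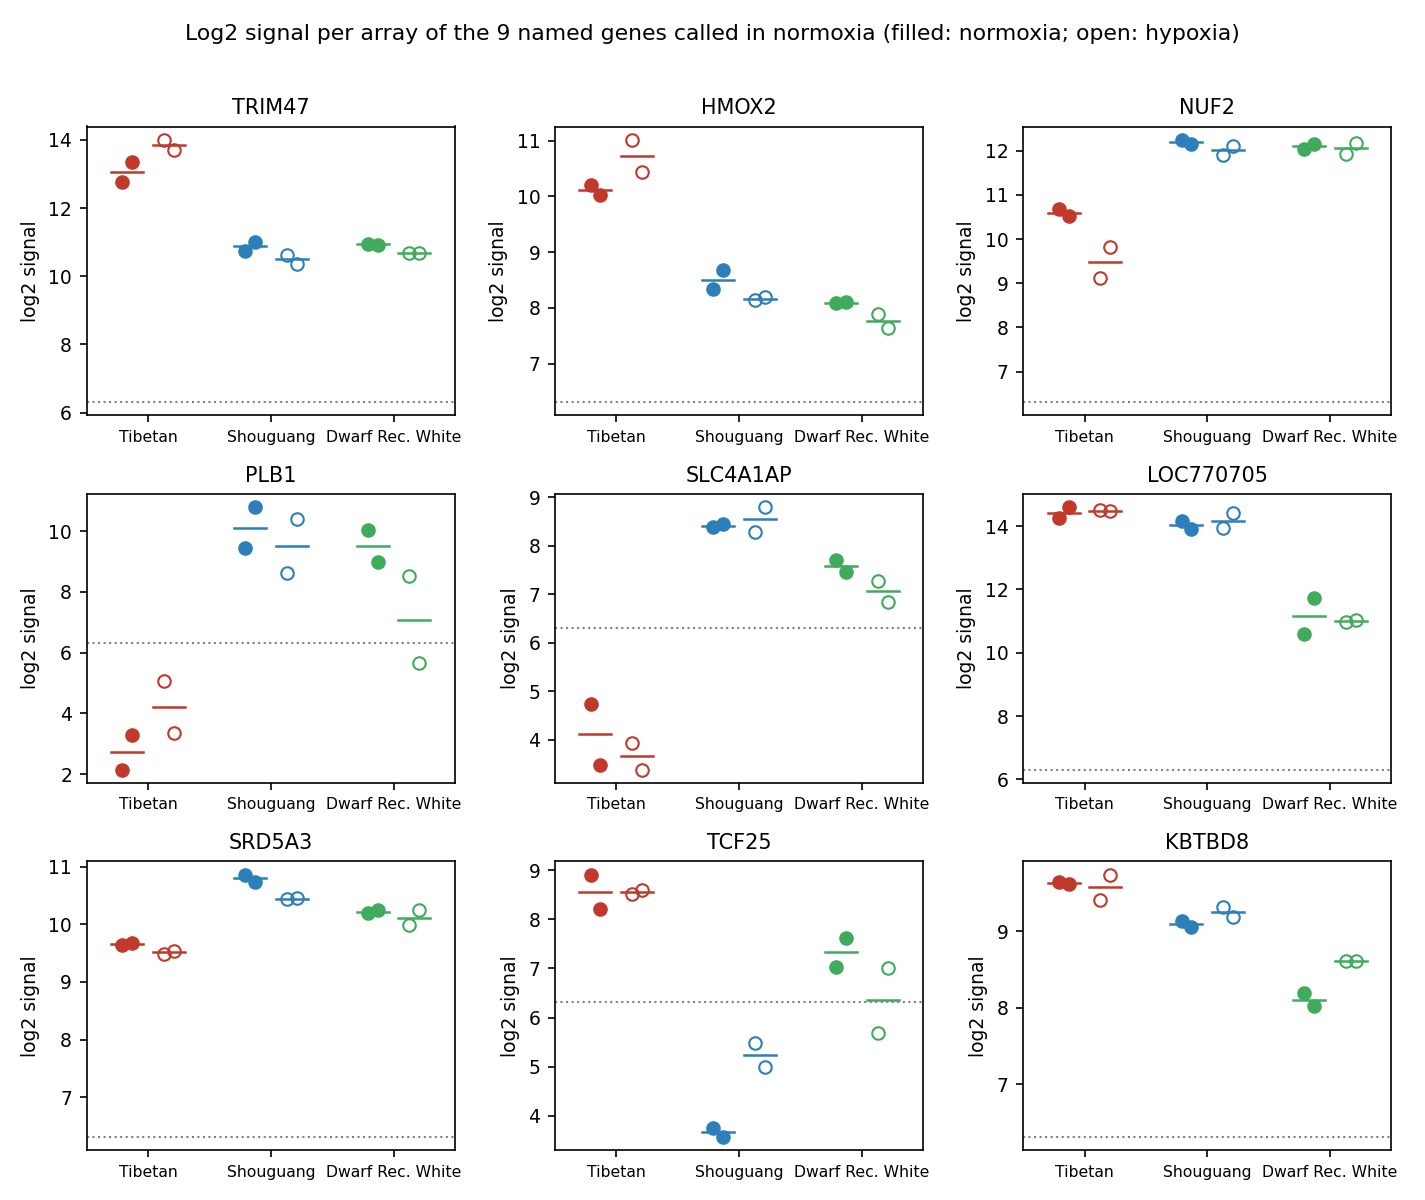
Log2 signal on each of the 12 arrays for the 9 named genes that passed in normoxia, by breed; filled circles are normoxia arrays, open circles hypoxia arrays, short lines the mean of each pair, and the dotted line the filter on dim probe sets at a log2 signal of 6.31. In normoxia both Tibetan arrays lie outside all 4 lowland arrays in each panel, by a margin that ranges from 0.08 for LOC770705 to 5.70 for PLB1.

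TRIM47, which belongs to the tripartite motif family of ubiquitin ligases in mammals, had the smallest p. Its log2 signal was 12.76 and 13.35 on the Tibetan arrays, 10.74 and 11.01 on the Shouguang arrays and 10.94 and 10.93 on the Dwarf Recessive White arrays. The lowland arrays lay close together and the Tibetan arrays well above all of them. TRIM47 rose by 2.15 ± 0.16, or 4.44-fold (adjusted p = 0.000232 in limma's fit). Against each lowland breed alone it was higher by 2.18 (Shouguang) and 2.12 (Dwarf Recessive White). The call held in each of the 12 fits that left out 1 array. In bulk tissue, more cells of a type and more RNA per cell cannot be told apart, here or in the results that follow. A probe set reads 1 stretch of a transcript, and the other tested one of TRIM47 differed by 0.22. Whether the whole transcript differed was not tested.

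HMOX2 encodes the constitutive haem oxygenase, which splits haem into biliverdin, iron and carbon monoxide. It read 10.20 and 10.02 on the Tibetan arrays, 8.33 and 8.68 on the Shouguang arrays and 8.08 and 8.10 on the Dwarf Recessive White arrays. The Tibetan arrays were above all others, and both lowland breeds were low. The other tested probe set of HMOX2, which was brighter, differed by -0.13. At the probe set read here HMOX2 rose by 1.81 ± 0.19, or 3.51-fold (adjusted p = 0.00643 in limma's fit). Without Tibetan normoxia replicate 1 its adjusted p was 0.0503, the one fit of 12 that left out an array and ended the call.

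NUF2, a subunit of the kinetochore complex that binds spindle microtubules in mitosis, was lower in Tibetan hearts. Its log2 signal was 10.68 and 10.51 in Tibetan hearts, 12.25 and 12.15 in Shouguang hearts and 12.03 and 12.16 in Dwarf Recessive White hearts. All 4 lowland arrays agreed within a narrow range, above both Tibetan arrays. NUF2 fell by 1.55 on the log2 scale (SE 0.17, adjusted p = 0.00643 in limma's fit). Of the 12 fits that left out an array, the one without Tibetan normoxia replicate 2 ended the call, at an adjusted p of 0.0546.

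PLB1, a phospholipase B at the cell membrane, gave the widest separation. The Tibetan arrays read 2.15 and 3.29, the Shouguang arrays 9.43 and 10.79 and the Dwarf Recessive White arrays 10.05 and 8.98. Both Tibetan values lay under the filter level for dim probe sets, a signal of 79.5 or a log2 signal of 6.31, where the order of values carries little weight. The fitted difference was -7.09 ± 0.80 (adjusted p = 0.00682 in limma's fit), and it was -3.50 with signals under the filter level raised to it, which bounds the size of the difference from below. Raising the dim signals ended the call (adjusted p = 0.0732), and so did leaving out Tibetan normoxia replicate 1 (adjusted p = 0.0565).

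SLC4A1AP encodes kanadaptin, named in mammals for its binding to the anion exchanger of red cells and kidney. It read 4.75 and 3.49 in Tibetan hearts, 8.38 and 8.45 in Shouguang hearts and 7.70 and 7.46 in Dwarf Recessive White hearts. Both Tibetan arrays were again under the filter level and every lowland array above it. The difference was -3.87 ± 0.45 (adjusted p = 0.00756 in limma's fit), and -1.68 with dim signals raised to the filter level. Without Shouguang normoxia replicate 2 the adjusted p was 0.0627.

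SRD5A3, an enzyme that makes the dolichol needed to attach sugars to proteins, showed a smaller but tight difference. Its log2 signal was 9.64 and 9.67 in Tibetan hearts, 10.86 and 10.74 in Shouguang hearts and 10.19 and 10.25 in Dwarf Recessive White hearts. The arrays fell into 3 levels by breed, with the Tibetan one lowest. SRD5A3 fell by 0.85 on the log2 scale (SE 0.12, adjusted p = 0.0341 in limma's fit). Taken alone, the difference from Shouguang was -1.14 (adjusted p = 0.0133) and that from Dwarf Recessive White was -0.56 (adjusted p = 0.22).

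For 3 of the higher genes the lowland breeds differed from each other. TCF25, a nuclear and ribosome-associated factor, read 8.91 and 8.22 in Tibetan hearts, 3.76 and 3.57 in Shouguang hearts and 7.03 and 7.63 in Dwarf Recessive White hearts. Shouguang was under the filter level, and the difference of 3.06 ± 0.46 (adjusted p = 0.0474 in limma's fit) was 1.74 with dim signals raised to that level (adjusted p = 0.0732). KBTBD8, an adaptor of a cullin ubiquitin ligase, read 9.64 and 9.62 in Tibetan hearts, 9.14 and 9.05 in Shouguang hearts and 8.19 and 8.02 in Dwarf Recessive White hearts, a difference of 1.03 ± 0.16 (adjusted p = 0.0474). Here Shouguang stood between the other breeds. In limma's fit KBTBD8 differed by 0.53 from Shouguang alone (adjusted p = 0.512) and by 1.52 from Dwarf Recessive White alone (adjusted p = 0.00597). TCF25 differed by 4.90 from Shouguang alone (adjusted p = 0.00859) and by 1.23 from Dwarf Recessive White alone (adjusted p = 0.53).

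LOC770705, a protein-coding gene with no name in the tables used, read 14.25 and 14.60 in Tibetan hearts, 14.17 and 13.92 in Shouguang hearts and 10.60 and 11.74 in Dwarf Recessive White hearts. The Tibetan arrays cleared the Shouguang arrays by only 0.08, and the Dwarf Recessive White arrays were far below both. The difference was 1.82 ± 0.24 (adjusted p = 0.0209 in limma's fit). It was 0.38 against Shouguang alone (adjusted p = 0.871) and 3.25 against Dwarf Recessive White alone (adjusted p = 0.000466). The 2 probe sets without a symbol had the same shape. One read 14.90 and 15.11, 14.79 and 14.27, and 12.39 and 13.19 in the 3 breeds in the same order, and rose by 1.35 ± 0.19 (adjusted p = 0.0274). The other read 12.12 and 12.15, 11.90 and 12.36, and 2.32 and 5.05, and is the one that passed (4.22 ± 0.51, adjusted p = 0.00943) without Tibetan hearts lying outside both lowland breeds. Its Dwarf Recessive White arrays were under the filter level, and the difference was 2.91 with dim signals raised to it.

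Leaving out 1 array at a time moved the later calls more than the first ones. LOC770705 passed in 8 of 12 such fits, and lost its call without Tibetan normoxia replicate 1, Tibetan normoxia replicate 2, Shouguang normoxia replicate 2 or Tibetan hypoxia replicate 2. SRD5A3 and TCF25 passed in 3 of 12 each, with adjusted p-values up to 0.139 and 0.22. KBTBD8 passed in 0 of 12 (adjusted p from 0.0597 to 0.191). The count of 11 became 5 without Shouguang normoxia replicate 2, 6 without Tibetan hypoxia replicate 2, 17 without Tibetan normoxia replicate 1 and 18 without Dwarf Recessive White normoxia replicate 2.

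The W chromosome, which only hens carry, was not read evenly across the groups. The mean log2 signal of 14 W-linked genes was 9.23 and 9.47 on the Tibetan arrays, 9.43 and 8.95 on the Shouguang arrays and 6.01 and 8.42 on the Dwarf Recessive White arrays. HINTW, a W-linked gene, read 14.01 and 14.10, 14.40 and 13.33, and 7.74 and 12.93 in the same order. The Tibetan arrays were thus at the upper end, level with Shouguang replicate 1. When the W-linked level entered the fit as a covariate, 1 probe set passed, that of TRIM47 (2.15, adjusted p = 0.00811). The changes of the next 4 genes barely moved, to 1.77 for HMOX2, -1.54 for NUF2, -7.30 for PLB1 and -3.85 for SLC4A1AP. Their adjusted p-values became 0.0706, 0.0706, 0.0706 and 0.0944. Other changes shrank more: LOC770705 went from 1.82 to 1.39, and the probe sets without a symbol from 1.35 to 1.06 and from 4.22 to 3.305. SRD5A3, TCF25 and KBTBD8 had -0.83, 3.135 and 1.09 with the covariate.

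The probe sets of 1 gene often disagreed. Of the 9 named genes 8 had further tested probe sets, which read other or overlapping stretches of the transcript. For TRIM47 the other one differed by 0.22, for HMOX2 by -0.13, for SLC4A1AP by -0.11, 0.22 and 0.31, and for TCF25 by -0.06 and 0.21. The change was thus seen in 1 probe set of each of these genes. Whether their whole transcripts differed, and why their probe sets disagreed, was not tested. The called probe set of HMOX2 was dimmer than the other (mean log2 signal 8.89 against 10.63). That of TCF25 was also dimmer (6.62 against 8.57 and 7.96). That of SLC4A1AP had 6.56, against 7.31, 6.5 and 8.64 in the order above. For TRIM47 the called one was brighter (11.65 against 8.89). The other probe sets of NUF2 (-0.57), PLB1 (-3.69, adjusted p = 0.0532) and LOC770705 (1.22) had the sign of the called one and lay outside both lowland breeds as well. The SLC4A1AP probe set at 0.31 lay above both lowland breeds, opposite to the called one. KBTBD8 had 0.32, 0.33 and -0.10, the first of them also above. SRD5A3 had no other.

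**Figure D2:**
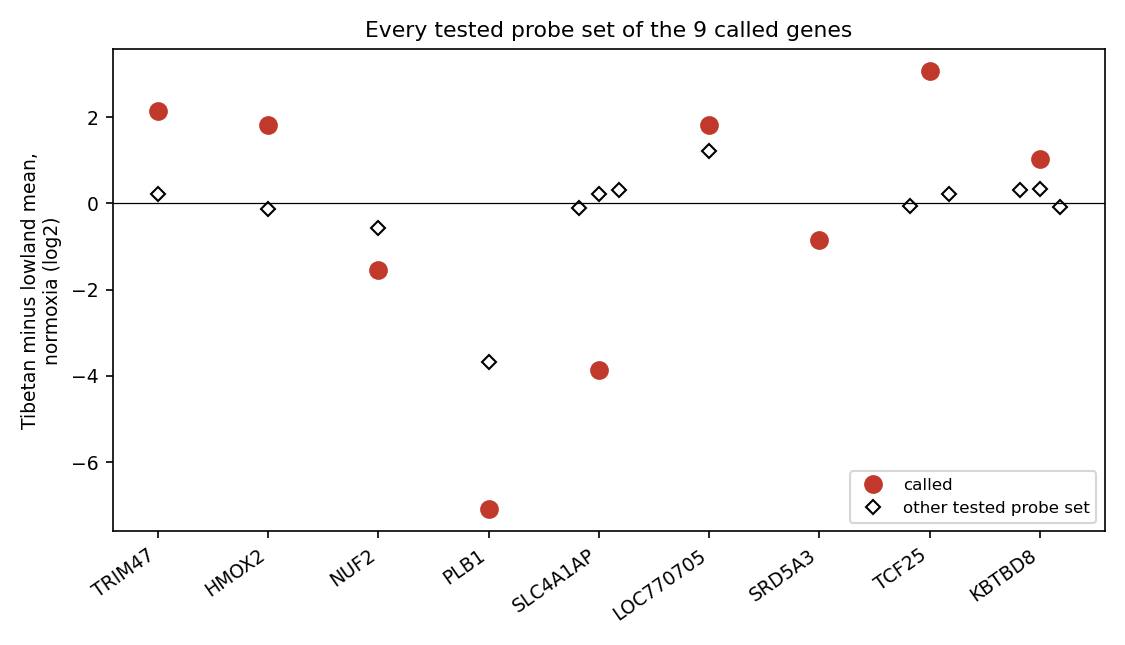
Tibetan minus lowland mean in normoxia (log2) for every tested probe set of the 9 named genes that passed; red circles are the called probe sets and open diamonds the others. The diamonds of TRIM47, HMOX2, SLC4A1AP and TCF25 lie within 0.31 of 0, those of SLC4A1AP on both sides of it, and those of NUF2, PLB1 and LOC770705 lie on the side of the called probe set.

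Each lowland breed on its own gave another scale for these differences. These comparisons share arrays with the one above, so they are set side by side only. Tibetan minus Shouguang had 8 calls (0.0347% of those tested), 4 higher (0.0173%) and 4 lower (0.0173%). Tibetan minus Dwarf Recessive White had 26 (0.113%), 20 higher (0.0867%) and 6 lower (0.026%). Shouguang minus Dwarf Recessive White had 59 (0.256%), 28 higher (0.121%) and 31 lower (0.134%). TRIM47, HMOX2, NUF2, PLB1 and SLC4A1AP passed against each lowland breed alone, with changes of 2.18 and 2.12, 1.60 and 2.02, -1.60 and -1.50, -7.39 and -6.80, and -4.29 and -3.46. For these 5 genes the lowland breeds differed by no more than 0.83 in size, with adjusted p-values of at least 0.606 between them. The growth hormone receptor gene GHR, which lies on the Z chromosome, showed the opposite layout. It read 10.52 and 10.40 in Tibetan hearts, 10.20 and 10.56 in Shouguang hearts and 12.59 and 12.49 in Dwarf Recessive White hearts. Its difference of -0.998 ± 0.17 (adjusted p = 0.11) stood beside 0.08 against Shouguang and -2.08 (adjusted p = 0.00105) against Dwarf Recessive White. The mean log2 signal of 476 Z-linked genes was taken relative to that of autosomal genes. It was -0.28 and -0.21 on the Tibetan arrays, -0.36 and -0.18 on the Shouguang arrays and -0.03 and -0.06 on the Dwarf Recessive White arrays. The part of the embryos' sex in the GHR difference was not tested.

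Pearson correlations of whole arrays, across probe sets, were 0.913 to 0.920 between Tibetan and lowland arrays, 0.914 to 0.920 between the lowland breeds and 0.916 to 0.922 within a group. The ranges overlap. Both Tibetan arrays lay above all 4 lowland arrays for 1682 probe sets (7.29%) and below them for 1685 (7.31%). With only 2 arrays against 4, a probe set can take this position without any difference between breeds. The position alone therefore does not set a gene apart, here or in the gene lists below. Among the 10276 genes, read by the probe set with the highest mean signal, 758 lay above (7.38%) and 774 below (7.53%). A difference of at least 2-fold and this position together held for 157 probe sets above (0.681%) and 167 below (0.724%). With Dwarf Recessive White normoxia replicate 1 left out, the array with the lowest W-linked level, 4651 probe sets lay outside in place of 3367, since fewer arrays then bound the range.

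The same contrast was taken in the 6 hypoxia arrays, whose means share no array with the normoxia means. The tests of both contrasts share 1 estimate of the spread over all 12 arrays, so their calls are not independent: without Tibetan hypoxia replicate 2 the normoxia count was 6, and without either Tibetan normoxia array the hypoxia count was 6. Fitted on the 6 normoxia arrays alone, 8 probe sets passed in normoxia, 5 of them among the 11, and fitted on the 6 hypoxia arrays alone, 11 passed in hypoxia, 8 of them among the 18. There 18 probe sets passed (0.078%), 8 higher (0.0347%) and 10 lower (0.0434%) in Tibetan hearts. Of the 11 normoxia calls 11 had the same sign in hypoxia, 10 lay outside both lowland breeds the same way, and 8 passed again, which is 72.7% of the normoxia calls and 44.4% of the hypoxia calls. The probe sets that lay above in normoxia did so again in hypoxia for 384 (22.8% of the normoxia ones and 19.1% of the hypoxia ones), against 8.72% of all probe sets above in hypoxia. Below, 347 did (20.6% and 19.5%), against 7.74%. For 99 probe sets the position was opposite.

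**Figure D3:**
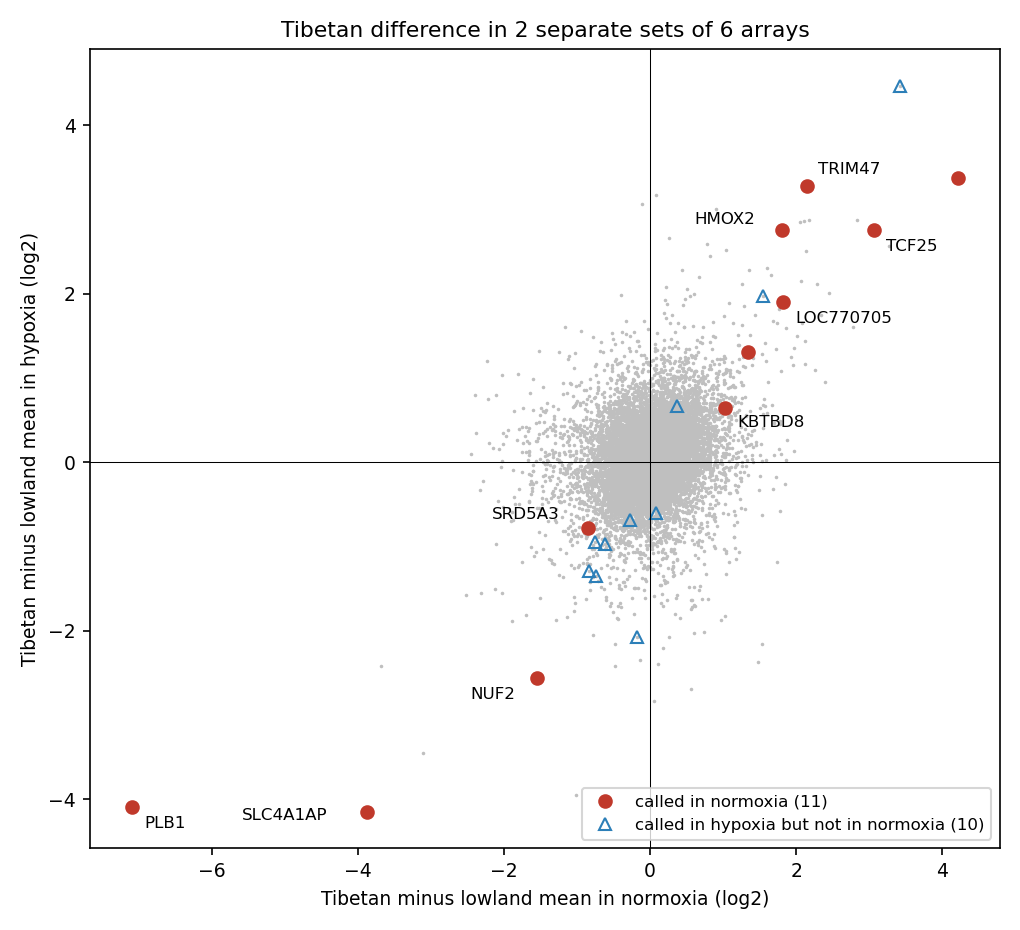
Tibetan minus lowland mean (log2) in normoxia on the horizontal axis and in hypoxia on the vertical axis, from 2 sets of 6 arrays that share none; grey points are all tested probe sets, red circles the 11 called in normoxia and blue triangles the 10 called in hypoxia but not in normoxia. All 11 red circles lie in the quadrants of equal sign.

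In hypoxia TRIM47 read 14.01 and 13.71 on the Tibetan arrays and 10.36 to 10.68 on the lowland arrays, a Tibetan difference of 3.28 (adjusted p = 1.69e-06 in limma's fit). HMOX2 read 11.02 and 10.43 against 7.64 to 8.19, a difference of 2.76 (adjusted p = 4.69e-05). NUF2 read 9.11 and 9.83 against 11.91 to 12.17, a difference of -2.56 (adjusted p = 3.53e-05). At these probe sets of the 3 genes the Tibetan arrays of hypoxia stood farther from the lowland arrays than those of normoxia. The other tested probe sets had -0.19 for TRIM47, 0.445 for HMOX2 and -0.74 for NUF2 in hypoxia. The Tibetan difference in normoxia minus that in hypoxia was -1.13 ± 0.22 for TRIM47, -0.95 ± 0.27 for HMOX2 and 1.01 ± 0.24 for NUF2, with unadjusted p-values of 0.000274, 0.00468 and 0.00119. For PLB1, whose Tibetan arrays were dim in both conditions, it was -3.00 ± 1.13 (unadjusted p = 0.021), with the larger difference in normoxia. Over all probe sets 0 passed for this difference in limma's fit (0% of those tested, 729 at an unadjusted p under 0.05), and the adjusted p of each of these 4 genes was 1.

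SLC4A1AP (-4.15, adjusted p = 0.00457), LOC770705 (1.90, adjusted p = 0.0152) and SRD5A3 (-0.78, adjusted p = 0.0427) passed in hypoxia as well. PLB1 had -4.10 (adjusted p = 0.107), with 1 Dwarf Recessive White array at 5.65, under the filter level. TCF25 had 2.76 (adjusted p = 0.0636) and KBTBD8 0.65 (adjusted p = 0.204). All 3 therefore kept their sign at the called probe set without passing. In hypoxia the other tested probe sets of SLC4A1AP had -0.31, 1.71 and -0.37. Those of TCF25 had 0.19 and 0.17, and those of KBTBD8 0.16, 0.93 and -0.37. The other one of PLB1 had -2.415 and that of LOC770705 1.39.

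Among genes that did not pass, further ones lay outside both lowland breeds, as 14.6% of all probe sets did. Some are named by the rule that fills a direction with few calls, and others were chosen after their values were seen, as the smallest p-values. MOXD1, a copper-dependent monooxygenase, read 12.34 and 12.33 in Tibetan hearts, 11.91 and 11.82 in Shouguang hearts and 11.65 and 11.43 in Dwarf Recessive White hearts (0.63 ± 0.10, adjusted p = 0.0657), and had 0.60 in hypoxia. NDUFS3, a core subunit of mitochondrial complex I, read 10.39 and 10.81, 9.91 and 9.90, and 9.66 and 9.72 (0.80 ± 0.14, adjusted p = 0.11). Both genes were higher in Tibetan hearts than on any lowland array but did not pass. The phosphodiesterase PDE4B, which breaks down cyclic AMP, had 1.39 ± 0.24, with 0.09 and -0.30 at its other probe sets. The circadian kinase CSNK1D had 1.27, with 0.05 and -0.56 at its other tested probe sets, and the laminin chain LAMA2 had 0.54, with 0.19 and 0.08. The Golgi protein GOLGA1 had 0.84, but its other tested probe sets had 0.06, 0.20 and -1.33, and the last lay below both lowland breeds.

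GPI, the isomerase of the second step of glycolysis, had the smallest p among the lower genes that lay outside both lowland breeds and did not pass. It read 13.16 and 13.12 in Tibetan hearts, 13.84 and 13.58 in Shouguang hearts and 13.73 and 13.70 in Dwarf Recessive White hearts (-0.57 ± 0.10, adjusted p = 0.11), and the other 2 probe sets, at -0.17 and -0.19, also lay below all lowland arrays. In hypoxia the first probe set had -0.14, with overlapping values, and the others had 0.10 and 0.18, with 1 of the 3 above all lowland arrays. The phosphatase CDC14A had -1.63, with 0.01 and -1.13 at its other tested probe sets. LIPT2 of lipoic acid synthesis, with 1 tested probe set, had -0.75, and DPH1 of diphthamide synthesis had -0.81, with -0.19 and -0.52 at the others. SECISBP2L had -0.86, -0.70 and 0.10, and NARF had -1.03, -1.01, -0.60 and 0.25. For the RNA-binding protein gene RBM38 the probe sets disagreed: a dim one had -2.01, or -0.93 with dim signals raised to the filter level, while the 3 brighter ones had 0.18, 0.48 and 0.14 and overlapped the lowland arrays. In hypoxia that dim probe set of RBM38 had 0.35, and the first one of NARF had -0.10.

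A gene read by several probe sets gives a comparison within the arrays. Such probe sets read the same RNA on the same arrays, and their stretches may overlap, so their agreement is not independent. Of the 4856 genes with several tested probe sets 1554 had at least 1 outside both lowland breeds, 92 had all of them outside the same way (35 above, 57 below), and 63 had probe sets outside in opposite ways. For 18 genes all probe sets lay outside in both conditions. PLB1 and NUF2 were among them. RWDD3, which promotes sumoylation, had -0.86, -0.75 and -0.60 in normoxia and -0.63, -0.80 and -0.42 in hypoxia. FBLN1, the matrix protein fibulin, had -0.52 and -0.60, PPP1R3B, which targets a phosphatase to glycogen, -0.68 and -0.47, and DACT2, a regulator of Wnt and Nodal signalling, 1.04 and 0.73. None of these last 4 genes passed, with adjusted p-values in normoxia from 0.174 for RWDD3 to 0.544 for PPP1R3B.

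The oxygen-sensing pathway showed no member that passed in normoxia. HIF1A and EPAS1, the oxygen-regulated HIF subunits, had -0.03 and -0.00, and EGLN1, a prolyl hydroxylase, had 0.05. Of 13 measured HIF pathway regulators, 6 were above 0 and 7 below, with a median of -0.00 against -0.00 over all genes, where 49.5% were above 0. SIAH1, a ubiquitin ligase for the prolyl hydroxylases, read 7.58 and 7.94 in Tibetan hearts and 7.07 to 7.18 in lowland hearts (0.65 ± 0.26), and CITED2, which competes with HIF for its coactivator, read 8.74 and 8.32 against 7.85 to 8.23 (0.43 ± 0.20). Both lay above all lowland arrays (15.4% of the list against 7.38% of all genes, with 0 below). In hypoxia CITED2 did so again (0.63) and SIAH1 lay below (-0.37).

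Of 29 HIF targets outside glycolysis, 2 lay above both lowland breeds (6.90% against 7.38% of all genes) and 4 below (13.8% against 7.53%), and the median was 0.00. Above were PLOD1, a collagen lysyl hydroxylase (0.39), and the repressor BHLHE40 (0.51). Below were P4HA2, a collagen prolyl hydroxylase (-0.90 ± 0.21), FAM162A (-0.25), the VEGF receptor FLT1 (-0.32) and the chemokine receptor CXCR4 (-0.24). P4HA2 read 7.86 and 7.84 in Tibetan hearts, 8.56 and 8.28 in Shouguang hearts and 9.15 and 9.01 in Dwarf Recessive White hearts. VEGFA itself had 0.07.

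Energy metabolism held members on both sides and no call. Of 22 measured genes of glycolysis and lactate, 9 were above 0 and 13 below (median -0.08, and 0.11 in hypoxia). Above both lowland breeds lay 3 (13.6% against 7.38% of all genes), and below them 2 (9.09% against 7.53%). PDK4, a kinase that inhibits pyruvate dehydrogenase, read 13.32 and 12.80 in Tibetan hearts, 12.33 and 11.52 in Shouguang hearts and 12.44 and 12.50 in Dwarf Recessive White hearts (0.86 ± 0.36), and had 1.50 in hypoxia. LDHA, a subunit of lactate dehydrogenase, had -0.17, below all lowland arrays in normoxia, and 0.24, above them all in hypoxia. The sign of the list's median changed when single arrays were left out (from -0.15 to 0.03).

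Of 52 measured genes of oxidative phosphorylation, 20 were above 0 and 32 below (median -0.02, and 0.01 at most when an array was left out). Above both lowland breeds lay 3 (5.77% against 7.38% of all genes) and below them 4 (7.69% against 7.53%), shares near those of all genes. NDUFS3 was among the 3. ATP5J2, a subunit of the ATP synthase, was among the 4 (-0.80 ± 0.22, and -0.80 in hypoxia). Of 26 measured fatty acid genes 14 were above 0, with 1 above both lowland breeds (3.85% against 7.38%) and 3 below (11.5% against 7.53%). HADHB of beta oxidation lay above in both conditions (0.26 and 0.31), and ETFDH (-0.26), the fatty acid transporter gene SLC27A4 (-0.26) and HADH (-0.10) lay below in normoxia. Energy buffering had 11 measured genes, 6 above 0 and 5 below, with a median of 0.03. Above both lowland breeds lay 1 (9.09% against 7.38% of all genes) and below them 2 (18.2% against 7.53%). The mitochondrial creatine kinase gene CKMT2 had -0.64 and GATM of creatine synthesis -0.93, both below all lowland arrays in normoxia. Their values in hypoxia were 0.32 and 0.36.

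The contractile genes of the heart muscle were level on the whole. Of 26 measured genes 18 were above 0, with a median of 0.05 (0.00 with quantile normalization), 3 above and 3 below both lowland breeds, or 11.5% each, against 7.38% and 7.53% of all genes. TNNT2 and ACTC1 had 0.09 and 0.06, the natriuretic peptide gene NPPA 0.09, MYH7B -0.02 and myoglobin MB 0.03. Apart from MYH7B, these genes read 14.77 to 15.63 over the 12 arrays. Whether so bright a signal still follows the amount of RNA was not tested. The thin filament protein gene LMOD2 had 0.54 ± 0.15, and TRDN, which holds the calcium release complex of the sarcoplasmic reticulum, 0.45 ± 0.12. A myosin heavy chain gene, MYH7, read 6.61 and 7.72 in Tibetan hearts, 8.50 and 8.90 in Shouguang hearts and 9.69 and 10.03 in Dwarf Recessive White hearts (-2.12 ± 0.83, adjusted p = 0.614). Its breeds were apart, but the spread between arrays was wide. Of 16 cardiac transcription factor genes 0 lay above and 0 below both lowland breeds. MYH6 and NPPB were not analysed here, since no probe set was matched to them.

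Immediate early genes, which cells switch on within minutes of a stimulus, were the list with the largest share above both lowland breeds in normoxia. All 16 measured members were above 0, with a median of 0.23 (0.20 to 0.27 with an array left out or another scaling), and 7 of them lay above all lowland arrays, or 43.8% against 7.38% of all genes. None passed the test. The members of a list were read on the same arrays, so they are not independent of each other, here or in the other lists. The mean of the list relative to all genes was 1.48 and 1.5 on the Tibetan arrays, 1.24 and 1.33 on the Shouguang arrays and 1.06 and 1.26 on the Dwarf Recessive White arrays. In hypoxia it was 1.48 to 1.65 on all 6 arrays, and the median difference of the list was 0.01. The Tibetan normoxia arrays thus stood level with Tibetan hypoxia replicate 2, at 1.48, and below the other hypoxia arrays, at 1.55 to 1.65. The 4 lowland normoxia arrays stood below all of these. The interaction of no member passed.

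**Figure D4:**
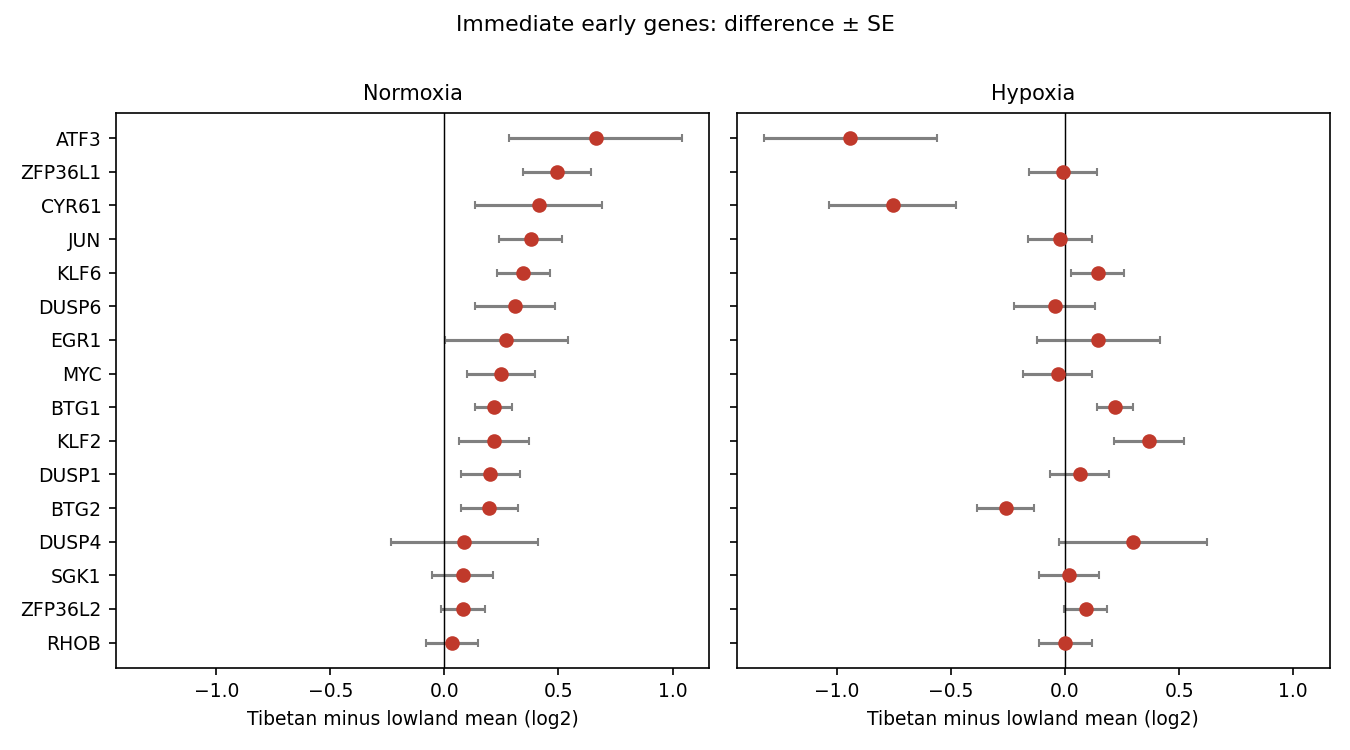
Tibetan minus lowland mean (log2, with SE bars) of the 16 measured immediate early genes in normoxia (left) and in hypoxia (right). In normoxia all 16 points lie above 0, from 0.03 to 0.66, and in hypoxia they lie on both sides, from -0.94 to 0.37.

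JUN, a subunit of the AP-1 transcription factor, read 11.94 and 12.24 in Tibetan hearts, 11.85 and 11.82 in Shouguang hearts and 11.43 and 11.76 in Dwarf Recessive White hearts (0.38 ± 0.14). The zinc finger factor KLF6 read 11.42 and 11.37, 11.22 and 11.03, and 10.87 and 11.08 (0.35 ± 0.12). The margins were small, and the lowland breeds overlapped each other for KLF6. MYC had 0.25, the MAP kinase phosphatase DUSP6 0.31, the matrix protein gene CYR61 0.41, and the antiproliferative genes BTG1 and BTG2 0.22 and 0.20. ATF3 had the largest difference of the list, 0.66 ± 0.38, but its Tibetan arrays read 9.30 and 8.14 and overlapped the Shouguang arrays at 7.79 and 8.91. In hypoxia CYR61 and ATF3 had -0.76 and -0.94.

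Smooth muscle and pericyte genes were the list with the largest share below both lowland breeds among lists with at least 10 measured genes, 4 of 12 or 33.3% against 7.53% of all genes. Of the 12 measured genes 3 were above 0 and 9 below (median -0.19, and -0.08 in hypoxia). RGS5, a pericyte regulator of G proteins, read 10.99 and 10.77 in Tibetan hearts, 11.39 and 11.57 in Shouguang hearts and 11.20 and 11.37 in Dwarf Recessive White hearts (-0.50 ± 0.12, adjusted p = 0.292). The myosin light chain gene MYL9 had -0.34, the smooth muscle actin gene ACTG2 -0.69 and TAGLN, an actin-binding protein, -0.34. PDGFRB, the growth factor receptor of pericytes, stood on the other side: it read 10.95 and 11.04 against 10.56 to 10.64 on the lowland arrays (0.40 ± 0.11). It was higher in hypoxia too, at 0.46.

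**Figure D5:**
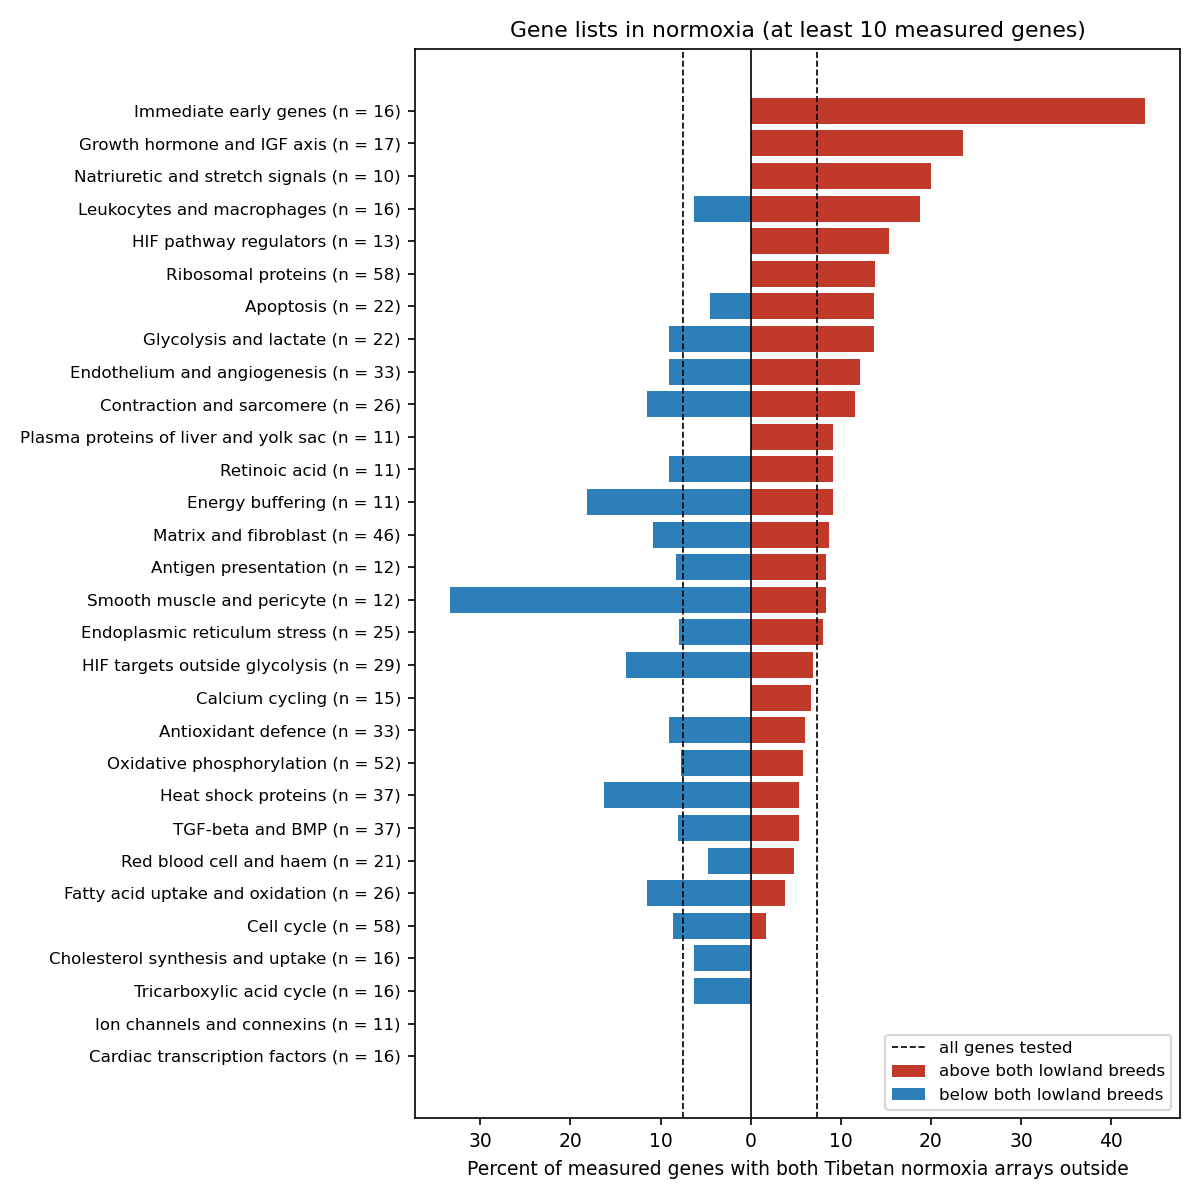
Share of the measured genes of each list for which both Tibetan normoxia arrays lay above (red, right) or below (blue, left) all 4 lowland arrays, in percent, for lists with at least 10 measured genes; dashed lines give the shares over all genes, 7.38% above and 7.53% below. The longest bars are those of the immediate early genes to the right and of the smooth muscle and pericyte genes to the left.

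Of 46 matrix and fibroblast genes 4 lay above both lowland breeds (8.70% against 7.38% of all genes) and 5 below (10.9% against 7.53%), shares near those of all genes. The connective tissue growth factor CCN2 read 12.52 and 12.59 in Tibetan hearts, 11.74 and 12.05 in Shouguang hearts and 12.05 and 12.26 in Dwarf Recessive White hearts (0.53 ± 0.14, and -0.33 in hypoxia). Below were FBLN1, the elastin gene ELN (-0.73), THBS4 (-0.34) and the collagen chains COL6A1 (-0.26) and COL6A2 (-0.14). TGFBI, a matrix protein induced by TGF-beta, had -1.04 in normoxia and -1.25 in hypoxia, below all lowland arrays both times. The growth factor BMP4 had -1.34 in normoxia (adjusted p = 0.519 in limma's fit) and -0.37 in hypoxia, where it did not lie outside the lowland arrays. Among 37 measured TGF-beta and BMP genes 2 lay above both lowland breeds (5.41% against 7.38%) and 3 below (8.11% against 7.53%), shares near those of all genes.

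Of 33 genes of endothelium and angiogenesis 4 lay above both lowland breeds (12.1% against 7.38% of all genes) and 3 below (9.09% against 7.53%). NOTCH1, a receptor of vessel and chamber patterning, read 11.07 and 10.82 in Tibetan hearts, 10.42 and 10.23 in Shouguang hearts and 10.33 and 10.29 in Dwarf Recessive White hearts (0.63 ± 0.13, adjusted p = 0.188). It was above all lowland arrays in hypoxia as well, at 0.59. The lymphatic growth factor VEGFD had 1.50 ± 0.33, with 2 Shouguang arrays under the filter level at 6.23 and 6.22, and the endothelial sialomucin EMCN had 0.91. Their differences in hypoxia were -0.16 and 0.27.

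Among signalling and defence genes, 4 of 17 of the growth hormone and insulin-like growth factor axis lay above both lowland breeds (23.5% against 7.38% of all genes) and 0 below. They were the receptors IGF1R (0.47 ± 0.15) and INSR (0.47 ± 0.27), the binding protein gene IGFBP7 (0.19) and the feedback inhibitor SOCS3 (0.40). IGF1R read 11.37 and 11.17 in Tibetan hearts against 10.70 to 10.92 in lowland hearts, and had 0.01 in hypoxia. Antioxidant genes, 33 measured, had 2 above both lowland breeds (6.06% against 7.38%) and 3 below (9.09% against 7.53%), with a median of -0.03. Highest among them was the glutathione peroxidase gene GPX1 (0.48 ± 0.11, adjusted p = 0.237 in limma's fit). Lowest was SOD3, the extracellular superoxide dismutase (-1.001 ± 0.23, adjusted p = 0.268). MDM2, the ubiquitin ligase for p53, had 0.64 and lay above all lowland arrays in both conditions.

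Growth and protein synthesis lists moved by small amounts. Of 58 cell cycle genes 41 were below 0 (median -0.08, -0.05 without Dwarf Recessive White normoxia replicate 1, and -0.12 in hypoxia). Below both lowland breeds lay 5 (8.62% against 7.53% of all genes), and above them 1 (1.72% against 7.38%). NUF2 was the 1 member that passed. The replication genes MCM5 (-0.24), PCNA (-0.18) and CDC45 (-0.26) were among the 5. Of 58 ribosomal protein genes 45 were above 0, with 8 above both lowland breeds (13.8% against 7.38% of all genes), but the median of 0.03 was -0.01 with quantile normalization. Of 16 cholesterol genes 14 were below 0, with a median of -0.13. That median was -0.07 without Dwarf Recessive White normoxia replicate 1 and -0.20 without its replicate 2. It was -0.19 without Tibetan normoxia replicate 1 and -0.33 without Shouguang normoxia replicate 2. Of these genes 1, MSMO1 (-0.38), lay below both lowland breeds (6.25% against 7.53%). Of 37 heat shock protein genes 6 lay below (16.2% against 7.53%), among them HSPA8 (-0.20) and the chaperonin subunit CCT6A (-0.24).

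Markers of the tissue and of its neighbours were read to check the samples. All 9 cardiomyocyte markers on the array were above the filter. Their summed signal was 329137 to 340059 in Tibetan, 329356 to 336368 in Shouguang and 306628 to 316603 in Dwarf Recessive White hearts. TNNT2, ACTC1 and NPPA are among them, so the limit given above for bright signals holds for this sum. The smooth muscle markers, of which ACTA2 was under the filter, summed to 1998 to 2118, 2265 to 3022 and 2601 to 2687. Tibetan arrays were thus lowest for the markers as for the smooth muscle list. The 2 readings are not separate, since TAGLN belongs to both and only 2 of the 3 markers on the array were above the filter. The part of cell number in the smooth muscle list was not tested. The 4 liver and yolk sac markers summed to 4142 to 7532, 5824 to 10710 and 1388 to 1949, and the 3 neural markers on the array to 816 to 1579, 906 to 1302 and 5168 to 7945. In both cases Dwarf Recessive White stood apart and the other breeds overlapped. The plasma protein list had a median of 0.44 (0.21 without Tibetan normoxia replicate 1 and 0.67 without its replicate 2) against the lowland mean, made of -0.37 against Shouguang and 1.12 against Dwarf Recessive White. The globin gene HBA1 had 0.06, HBE -0.77 (adjusted p = 0.557) and ALB, serum albumin, 0.67.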

How the data were processed

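The authors deposited, for each probe set and array, a linear signal intensity computed with GCOS, per the submitters' processing notes, which name no version. The mean signal of every array, trimmed by 2% at each end, was 500.0, so the authors had scaled the arrays to a common mean. Median signals were 134 to 155. Of 38535 probe sets, 96 controls were left out and signals were put on the log2 scale. A filter at the 40th percentile of the mean log2 signal (79.5 as a signal) kept 23063 for testing. Names come from the platform's annotation table: 27178 probe sets had 1 symbol, 177 several and 11180 none, and only the first were named. Of these, 26863 matched a gene of the GRCg7b reference, from which sex chromosomes were taken and no coordinates. The 10276 genes named this way had 1 tested probe set (5420) or several (4856).

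A linear model over all 12 arrays, with 6 group means, was fitted by limma 3.58.1 in R 4.3.3. Variances were moderated along an intensity trend, with 6 residual and 6.16 prior degrees of freedom, and two-sided p-values were adjusted by Benjamini-Hochberg over all tested probe sets. All adjusted p-values are from this fit. The contrast weights both lowland breeds equally. A probe set is outside both lowland breeds when both Tibetan arrays lie above or below all 4 lowland arrays. Gene lists take for each gene the probe set of highest mean signal and are described by counts and medians without a test. Named genes are the passing genes outside both lowland breeds, at most 12 in each direction, with a direction of fewer than 5 filled to 8 by the smallest p, the passing members of each list, and a set of hypoxia, heart, globin, liver and W-linked genes. The procedure was tested on simulated data. Members, lists and rules were chosen with earlier results of these data known. The alternatives, given in the closing section, were the filter, the scaling, an offset of 10.9 before the log, the trend, weights per array, a block on the replicate number, a fit of the compared arrays alone, a single probe set per gene, thresholds, the W-linked level, leaving out genes on Z and W, raising dim signals to the filter level, and leaving out each array.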

Additional observations from a re-analysis of the deposited data

How the results depend on the processing

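The count of 11 was 3 without the intensity trend, 40 with the replicate number as a block, 4 with 1 probe set per gene and 1 with the covariate of W-linked level, and ran from 5 to 18 with an array left out. The count of 10 that passed outside both lowland breeds was 3, 35, 4 and 1 under the same settings, and 5 to 17 with an array left out. Tibetan minus Shouguang (8) had 4 calls with the 60th percentile filter, 5 without the trend, 32 with the block, 4 with 1 probe set per gene and 13 at an adjusted p of 0.1, and 1 (without Tibetan normoxia replicate 2) to 23 (without Shouguang normoxia replicate 2) with an array left out. Tibetan minus Dwarf Recessive White (26) had 8, 117, 12 and 44 without the trend, with the block, per gene and at 0.1, 2 with the W-linked covariate, and 8 (without Tibetan normoxia replicate 2) to 50 (without Dwarf Recessive White normoxia replicate 2). Shouguang minus Dwarf Recessive White (59) had 37 with median centring, 4 without the trend, 205 with the block, 17 with only the arrays compared, 16 per gene, 122 at 0.1 and 1 with the covariate, and 20 (without Shouguang normoxia replicate 2) to 65 (without Shouguang hypoxia replicate 1). Tibetan minus lowland in hypoxia (18) had 6 without the filter, 4 without the trend, 89 with the block, 11 with only the arrays compared, 28 at 0.1 and 4 with the covariate. It ran from 6 to 25, with 6 without either Tibetan normoxia array, either Dwarf Recessive White hypoxia array or Shouguang hypoxia replicate 1. The difference between conditions had 0 calls under every setting but 1 without Tibetan normoxia replicate 1 or Tibetan hypoxia replicate 1. The cause of these moves was not tested; with 1 probe set per gene fewer probe sets are tested, and 0.1 is a looser threshold.

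No called direction was reversed. Of the named calls, TRIM47 passed under every setting. Without the intensity trend HMOX2 had an adjusted p of 0.0503 and NUF2 and PLB1 0.102. The median difference over all probe sets was -0.004 with quantile normalization and -0.023 with median centring, against -0.001 in the main fit. The arrays share replicate numbers, and the deviations of same-numbered arrays correlated at 0.06 to 0.20 over 15 pairs of groups. With 2 numbers and no label tying them to a shared hatch or day, the block is given as an alternative only. Where a signal is under the filter level, only a bound is known.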

Other observations

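Of 18 probe sets that passed in hypoxia, 17 had the same sign in normoxia. The one that did not, for HSPB9, a small heat shock protein gene, had -0.60 in hypoxia and 0.08 in normoxia. NSD1, a histone methyltransferase gene, had a Tibetan difference of -2.07 in hypoxia (adjusted p = 0.0423 in limma's fit) and had -0.18 in normoxia (adjusted p = 0.95). LIPT2 had -0.94 in hypoxia (adjusted p = 0.0423) and had -0.75 in normoxia. These genes were chosen after their values were seen, and whether the difference depends on the incubation was tested over all probe sets, where 0 passed.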
